A study of Rattus norvegicus with 8 samples.

Results

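Autophagy encloses cytoplasm, organelles or other cargo in a double membrane that fuses with lysosomes. The genes described here encode its core machinery, and were every name in the deposited count table that begins with Atg followed by a digit, together with 20 further names for the kinases, lipid kinase subunits, membrane proteins, LC3 and GABARAP proteins and cargo receptors of the pathway. The rule found 37 of 22601 gene names, and all 37 were abundant enough to be tested. Rat sciatic nerve was sampled 15 days after chronic constriction injury (CCI), a model of neuropathic pain in which loose ligatures constrict the nerve, or 15 days after sham surgery, with 4 libraries of polyA RNA in each group. The labels give no strain, sex, age or drug, and do not state if any animal gave more than 1 library. The p-values therefore speak for the spread among these 8 libraries, which may be technical.

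In textbook terms, the ULK1 kinase complex starts the process, a class III phosphatidylinositol 3-kinase complex marks the membrane, lipid carriers and scramblases enlarge it, and a pair of ubiquitin-like conjugation systems attach LC3 and GABARAP proteins to it. Cargo receptors bind both the cargo and LC3. In injured peripheral nerve, Schwann cells are known to break down their own myelin partly by autophagy, and macrophages use part of the same machinery to mature phagosomes. Transcript levels do not measure how much material passes through the pathway.

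Library totals ran from 42541217 to 54559292 counts, and CCI lay apart from sham on a first principal component with 78.5% of the variance. The sham libraries formed the pairs 2 with 3 and 1 with 4, at chi-square per degree of freedom of 29.6 and 27.5, where the remaining sham pairs gave 50 to 74.5. Of 14 macrophage markers 13 were higher in CCI, and their levels summed to between 5420 and 6343 CPM (counts scaled to a common library size) in CCI libraries against 1009 to 1565 CPM in sham libraries. All 12 markers of myelinating Schwann cells were lower, with sums of 6985 to 10710 CPM in CCI against 92830 to 109400 CPM in sham. The 13 skeletal muscle markers summed highest in library 2 of each group, at 2960 CPM in CCI 2 against 14.4 to 575 CPM in the other CCI libraries, and at 768 CPM in sham 2 against 31.9 to 58.3 CPM in the other sham libraries. No marker of these 3 lists was at 0 in any library. Markers of neutrophils (6 of 8 higher) and lymphocytes (7 of 9 higher) were higher too, and all 7 perineurial markers tested were lower. Endothelial markers were higher in 6 of 8 and lower in 1, with sums of 1251 to 1404 CPM in CCI against 811 to 872 CPM in sham. Of 12 markers of nonmyelinating and repair Schwann cells 5 were higher, among them Ngfr (13.1-fold) and Gdnf (16.9-fold), and 3 lower, among them Scn7a (log2 fold change -2.95). The 12 markers summed to 811 to 1281 CPM in CCI against 1855 to 2352 CPM in sham. Scn7a alone had 184 to 284 CPM in CCI and 1495 to 1944 CPM in sham, most of each sham sum. The lower sums in CCI therefore do not describe the other markers of this list. Markers moved in both directions for fibroblasts (2 of 10 higher, 3 lower) and smooth muscle cells and pericytes (5 of 8 higher, 3 lower), while 3 of 8 adipocyte markers were higher. These shifts move with every result that follows, and their part in those results was not tested. In a whole nerve, fewer cells of a type and less RNA per cell cannot be told apart.

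In the main test over all 8 libraries, the core autophagy genes moved about as often as other genes, but by less. Of the 37 members, 26 (70.3%) were called changed, 8 higher and 18 lower in CCI, by edgeR's quasi-likelihood test at a Benjamini-Hochberg adjusted p under 0.05 over all genes tested. Over all 15763 tested genes the share was 68.4%, with 36.2% higher and 32.2% lower. Only 3 members (8.11%) were both called and changed at least 2-fold, Vmp1 higher and Gabarapl1 and Optn lower, against 30.3% of all tested genes. The median absolute log2 fold change was 0.32 over the members and 0.60 over all tested genes, and 0.58 over the 14243 tested genes whose mean level lay within the range of the members. CCI and sham libraries did not overlap in 26 members (70.3%), against 64.8% of all tested genes.

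**Figure D1:**
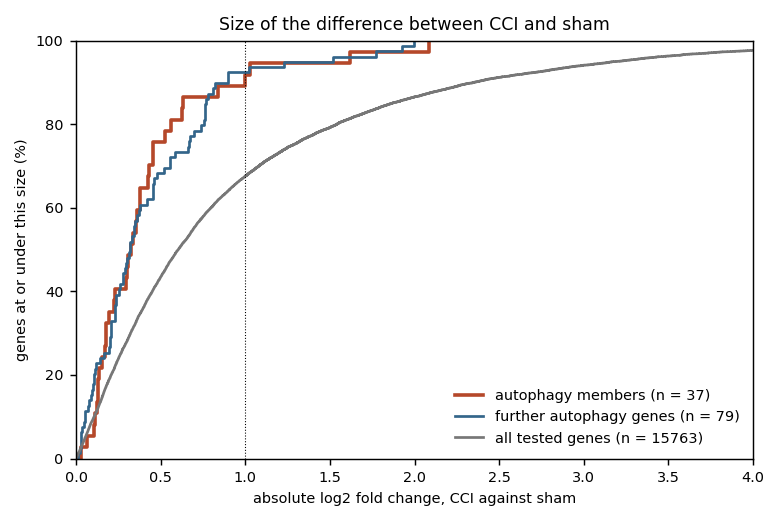
Cumulative share of genes, in percent, at or under each absolute log2 fold change between CCI and sham, for the 37 core autophagy genes, 79 further autophagy genes and all 15763 tested genes. The dotted line marks a 2-fold difference, past which lay few autophagy genes, and the axis ends at 4; the curves have medians of 0.32 for both autophagy lists and 0.60 for all genes.

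The direction of the smaller differences depended on how libraries were scaled. With TMM scaling, which assumes that most genes do not change, the median log2 fold change was -0.17 over the members and 0.05 over all tested genes. With library totals only, it was 0.05 over the members and 0.27 over all tested genes, so that the members lay 0.22 below the other genes on either scale. The 8 members called higher kept that call with library totals, while only 6 of the 18 called lower did, and 6 more members were then called higher. Over all tested genes the share of calls that were higher was 52.9% with TMM and 66.9% with library totals. Library totals called 20 of the 37 members, a smaller share than the 11115 called of all 15763 tested genes. Of the 26 calls, 12 held in the same direction under each of the 19 alternative settings listed under the processing. Among these 12, Vmp1, Atg7, Atg5, Atg16l1, Atg4c and Gabarap were higher, and Gabarapl1, Optn, Ulk2, Rubcn, Wipi1 and Atg13 were lower. The same count was not made over all tested genes, so the 12 cannot be set against other genes. Without sham 2 and sham 3, an alternative chosen after seeing the data, 7 members were higher and 11 lower. These 18 of 37 members were a smaller share than the 9861 called of 16252 genes tested there. CPM values that follow are TMM-normalised and, where a mean is given, mean ± SD of 4 libraries, fold changes are CCI against sham with approximate standard errors (SE), and adjusted p are from the edgeR test over all genes.

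**Figure D2:**
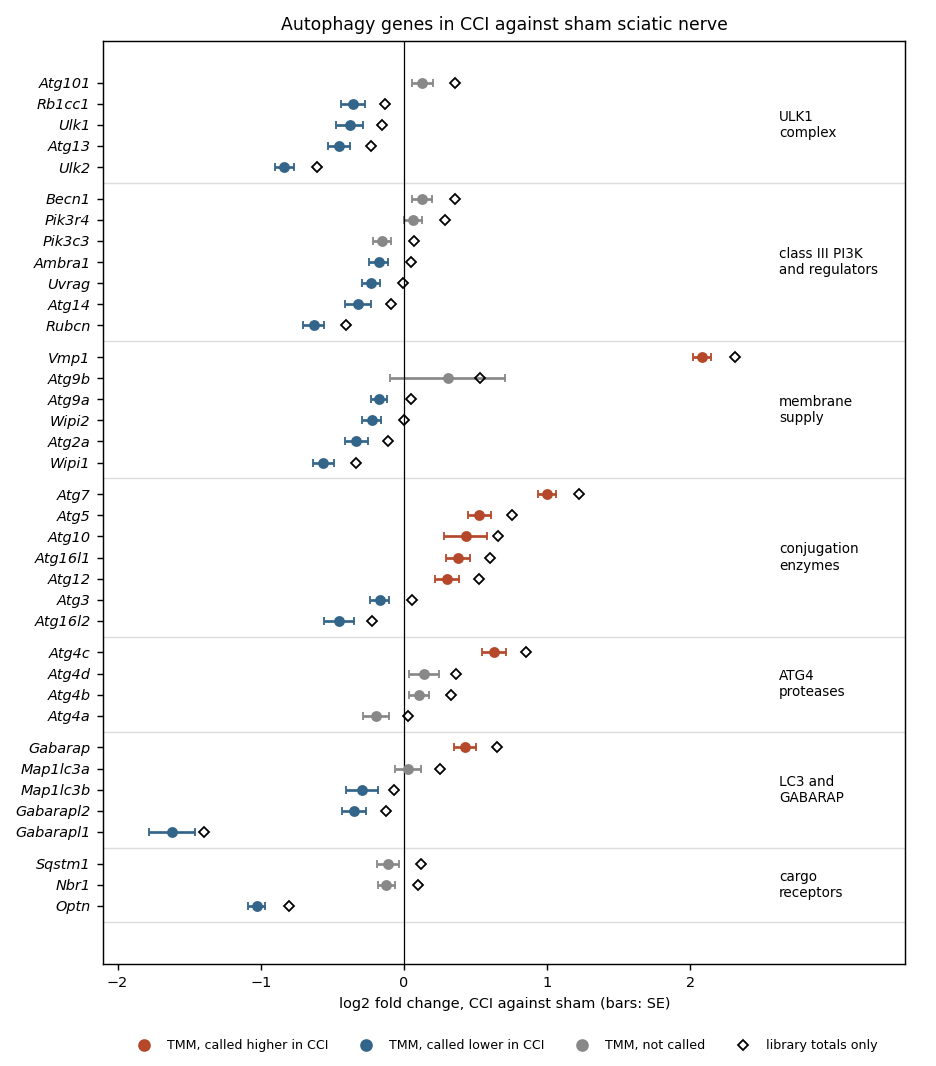
Log2 fold change of each of the 37 autophagy genes, CCI against sham, grouped by role. Filled circles with SE bars are TMM-scaled values (red called higher, blue called lower, grey not called), and open diamonds are values scaled by library totals only, which lie to the right of the circles for every gene; Vmp1 stands furthest right at 2.08 and Gabarapl1 furthest left at -1.62.

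Vmp1 had the largest change of the set and Gabarapl1 the largest fall, followed by Optn, so the sequences upstream of these 3 genes are shown. Each is 250 bases before to 50 bases after the gene's start, from RefSeq on the build GRCr8. Capitals mark matches, on either strand, to any of 5 motifs. The first is the E-box core CACGTG that TFEB, a regulator of lysosome and autophagy genes, binds. Next are the antioxidant element core TGACNNNGC and the forkhead site GTAAACA. The AP-1 site was searched loosely as TGANTCA, with any base in the middle, where the site itself has C or G. The hypoxia element core was searched only in its form ACGTG, which lies within CACGTG.
Vmp1 (chr10:72002270-72002569, minus strand): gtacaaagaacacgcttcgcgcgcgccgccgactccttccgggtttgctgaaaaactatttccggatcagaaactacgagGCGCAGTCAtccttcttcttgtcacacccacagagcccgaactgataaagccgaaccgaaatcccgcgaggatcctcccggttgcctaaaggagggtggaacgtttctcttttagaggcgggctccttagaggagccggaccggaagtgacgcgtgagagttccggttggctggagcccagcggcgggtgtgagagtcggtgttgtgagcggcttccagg
Gabarapl1 (chr4:164666082-164666381, plus strand): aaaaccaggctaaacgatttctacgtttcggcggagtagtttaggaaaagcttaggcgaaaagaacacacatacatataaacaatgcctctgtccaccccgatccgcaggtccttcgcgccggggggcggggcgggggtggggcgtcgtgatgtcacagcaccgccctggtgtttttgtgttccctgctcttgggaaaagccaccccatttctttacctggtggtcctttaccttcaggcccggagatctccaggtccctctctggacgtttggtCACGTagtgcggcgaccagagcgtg
Optn (chr17:78118619-78118918, plus strand): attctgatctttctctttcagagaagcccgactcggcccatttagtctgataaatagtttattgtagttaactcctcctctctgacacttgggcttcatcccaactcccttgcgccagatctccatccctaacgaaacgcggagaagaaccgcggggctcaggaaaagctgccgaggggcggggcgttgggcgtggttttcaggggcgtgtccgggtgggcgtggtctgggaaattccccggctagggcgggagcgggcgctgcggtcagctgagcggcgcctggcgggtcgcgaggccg
Counted from the first base of the window, Vmp1 held 1 antioxidant core at position 81 and Gabarapl1 held 1 ACGTG at position 276. The motifs as searched were not in the Optn window. GCGTG, the other form of the hypoxia core, was not searched for, and stands unmarked in each printed window. RefSeq gave 34 promoters for 33 of the 37 members. The E-box core was in 3 of the 34 (8.82%, Atg14, Atg3 and Atg5), against 6.42% of all 33469 promoters. The antioxidant core was in 7 (20.6%) against 12.1% of all, and the forkhead site in 0 against 3.78%. The loose AP-1 pattern TGANTCA was in 2 (5.88%) against 7.33%, and the hypoxia form ACGTG in 9 (26.5%) against 19.3%. A match describes these letters only, and no match says only that they are not in the window.

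In the ULK1 complex, 4 of 5 genes were lower with TMM and none higher, with a median log2 fold change of -0.38. For this and the role groups below, the TMM shares over all tested genes were 36.2% higher and 32.2% lower. Ulk2, a kinase closely related to ULK1, changed most. Ulk2 had 121, 119, 126 and 131 CPM in CCI 1 to 4, against 237, 210.4, 233 and 207 CPM in sham 1 to 4. Every CCI library lay below every sham library, and Ulk2 fell by 0.84 (log2, SE 0.07; edgeR adjusted p = 1.12e-06). Atg13, which links the kinase to its scaffold, had 54.8 ± 1.33 CPM in CCI and 75.0 ± 8.52 CPM in sham (log2 fold change -0.45, edgeR adjusted p = 0.000434). Ulk1, the kinase that gives the complex its name, had 56.1 ± 2.94 CPM in CCI and 73.0 ± 10.2 CPM in sham (log2 fold change -0.38, edgeR adjusted p = 0.00482), and Rb1cc1, the scaffold FIP200, had 99.0 ± 7.14 CPM in CCI and 127 ± 12.2 CPM in sham (log2 fold change -0.36, edgeR adjusted p = 0.00284). Ulk2 and Atg13 kept their calls with library totals only. Ulk1 and Rb1cc1 did not pass there, at log2 fold changes of -0.16 and -0.13 (edgeR adjusted p = 0.183 and 0.184). Ulk1 also lost its call without sham 2 and sham 3 (log2 fold change -0.21, edgeR adjusted p = 0.0581). Atg101, which stabilises ATG13, was at 15.4 ± 0.621 CPM in CCI and 14.1 ± 0.191 CPM in sham and did not pass (edgeR adjusted p = 0.152), although the groups did not overlap and it was called higher with library totals only (log2 fold change 0.35, edgeR adjusted p = 0.00147).

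The class III phosphatidylinositol 3-kinase genes changed little, apart from Rubcn. With TMM 4 of 7 were lower and none higher, with a median log2 fold change of -0.18. Rubcn encodes Rubicon, which inhibits the kinase and slows autophagosome maturation but takes part in LC3-associated phagocytosis. Rubcn had 89.9, 97.1, 108 and 103 CPM in CCI 1 to 4, against 148, 149, 169 and 151 CPM in sham 1 to 4. The groups did not overlap, and Rubcn fell by 0.63 (log2, SE 0.07; edgeR adjusted p = 2.01e-05). The core subunits did not pass with TMM and the default filter. Becn1, the scaffold Beclin, was at 49.6 ± 1.28 CPM in CCI and 45.4 ± 3.52 CPM in sham (edgeR adjusted p = 0.122), Pik3c3, the catalytic subunit, at 32.4 ± 1.17 CPM in CCI and 36.0 ± 1.64 CPM in sham (edgeR adjusted p = 0.0515) and Pik3r4, its regulatory partner, at 43.6 ± 1.92 CPM in CCI and 41.7 ± 1.71 CPM in sham (edgeR adjusted p = 0.394). With library totals only, Becn1 and Pik3r4 were called higher, at log2 fold changes of 0.35 and 0.29 (edgeR adjusted p = 0.00115 and 0.00198), and the log2 fold change of Pik3c3 turned to 0.07 in place of -0.15. Pik3c3 lay close to the threshold and was called lower with DESeq2's size factors (-0.19, edgeR adjusted p = 0.0218), by the DESeq2 Wald test (-0.18, adjusted p = 0.0184), with no filter (-0.18, edgeR adjusted p = 0.0409), with a filter of 5 CPM (-0.21, edgeR adjusted p = 0.0123) and without CCI 1, CCI 4 or sham 4 (edgeR adjusted p = 0.0318 to 0.0487). Becn1 was called higher without sham 2 (log2 fold change 0.17, edgeR adjusted p = 0.0473). Atg14, the subunit that directs the kinase to forming autophagosomes, Uvrag, the subunit used in its place on endosomes, and Ambra1, an activator of the complex, were called lower with TMM, at log2 fold changes of -0.32, -0.23 and -0.18. None of these calls held with library totals only, where they were at -0.09, -0.01 and 0.05, the last with its sign turned. Without CCI 2 and sham 2 the calls of Uvrag and Ambra1 were lost (edgeR adjusted p = 0.0646 and 0.171). Without sham 2 and sham 3 none of the 3 passed (edgeR adjusted p = 0.0664, 0.0525 and 0.226 for Atg14, Uvrag and Ambra1). The call of Ambra1 was also lost without CCI 2, sham 2 or sham 3 alone, at log2 fold changes of -0.19, -0.14 and -0.17 (edgeR adjusted p = 0.0512, 0.0823 and 0.0638).

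Among the 6 genes that supply membrane, 1 was higher and 4 lower with TMM, with a median log2 fold change of -0.20, and Vmp1 was the one higher. VMP1 is a lipid scramblase of the endoplasmic reticulum that is needed for autophagosomes to form. Vmp1 had 229.7, 230.2, 217 and 211 CPM in CCI 1 to 4, against 50.2, 54.4, 55.2 and 49.8 CPM in sham 1 to 4. The lowest CCI library was several times the highest sham library. Vmp1 was 4.24-fold higher in CCI (log2 fold change 2.08, SE 0.06; edgeR adjusted p = 3.84e-09). Per length it moved to the 4th most abundant member in CCI, at 70.3 ± 2.28 FPKM (counts scaled by gene length and library total), against the 18th in sham, at 14.2 ± 0.785 FPKM (SD, n = 4). In the RefSeq annotation Mir21, the gene of the microRNA miR-21, is the next gene downstream of Vmp1 on the same strand. In mammals the primary transcript of that microRNA is known to overlap the end of VMP1, and reads from it would count for Vmp1 where they fall in its exons. Mir21 was not analysed here, and its part in the value was not tested.

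The other genes of this group were lower with TMM or did not pass. Wipi1, which binds the lipid mark made by the kinase, had 69.1 ± 1.39 CPM in CCI and 102 ± 11.0 CPM in sham (log2 fold change -0.56, SE 0.07; edgeR adjusted p = 5.77e-05), and was lower with library totals too (-0.34, edgeR adjusted p = 0.00150). Atg2a, which transfers lipids, Wipi2, which recruits ATG16L1, and Atg9a, a scramblase of the vesicles that seed the membrane, were called lower with TMM at log2 fold changes of -0.33, -0.23 and -0.18. With library totals only they did not pass, at -0.11, -0.000361 and 0.05, and Atg9a changed sign. With CCI 2 and sham 2 (highest in muscle markers) left out, the call of Wipi2 was lost (edgeR adjusted p = 0.0676), and without sham 2 and sham 3 that of Atg9a (0.0890). Atg9b, the scarcest member, was at 0.661 ± 0.268 CPM in CCI and 0.534 ± 0.143 CPM in sham, with CCI 2 above the other 7 libraries, and did not pass (edgeR adjusted p = 0.515). Its log2 fold change of 0.30 turned to -0.01 without CCI 2.

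The conjugation enzymes were the group with most rises. Of 7 genes 5 rose, calls that held with library totals only, and 2 were lower with TMM, neither of them with library totals. The median log2 fold change was 0.38. Atg7, the activating enzyme at the head of both conjugation systems, led them. Atg7 had 52.6, 53.4, 49.9 and 50.2 CPM in CCI 1 to 4, against 24.9, 26.1, 25.1 and 27.0 CPM in sham 1 to 4. Atg7 was 1.997-fold higher in CCI, just under the 2-fold mark used above, with no overlap between groups (log2 fold change 1.00, SE 0.06; edgeR adjusted p = 1.72e-07). The 3 genes whose products form the ATG12-ATG5-ATG16L1 complex, which places LC3 on the membrane, rose as well. Atg5 had 29.3 ± 2.42 CPM in CCI and 20.4 ± 1.06 CPM in sham (log2 fold change 0.53, edgeR adjusted p = 0.000162). Atg16l1 had 31.7 ± 2.44 CPM in CCI and 24.4 ± 1.86 CPM in sham (log2 fold change 0.38, edgeR adjusted p = 0.00208) and Atg12 had 31.0 ± 1.85 CPM in CCI and 25.2 ± 2.48 CPM in sham (log2 fold change 0.30, edgeR adjusted p = 0.00951). Atg10, the conjugating enzyme for ATG12, was scarce, at 6.11 ± 0.562 CPM in CCI and 4.53 ± 0.722 CPM in sham, and rose by 0.43 (log2; edgeR adjusted p = 0.0265).

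Some calls among the conjugation enzymes lay near the threshold and were lost when libraries were left out, which also leaves less data for the test. Without CCI 2 the adjusted p of Atg12 was 0.0509. That of Atg10 lay between 0.0583 and 0.0996 when CCI 2, CCI 3 or sham 1, 2 or 3 was left out, and was 0.105 without CCI 2 and sham 2 and 0.154 without sham 2 and sham 3 (edgeR). The log2 fold change of Atg10 was 0.34 to 0.41 in these fits, against 0.43 with all libraries. Atg3, the conjugating enzyme for LC3, was called lower with TMM by a small margin (log2 fold change -0.17, edgeR adjusted p = 0.0433), and its groups overlapped. Its sign turned with library totals only (0.05), and its call was lost with the replicate number as a block (edgeR adjusted p = 0.0811). The call was also lost without CCI 2, CCI 3, or sham 2, 3 or 4, at log2 fold changes of -0.14 to -0.18 (edgeR adjusted p = 0.0596 to 0.106). Atg16l2, a paralog of Atg16l1, went the other way from it, with 11.1 ± 0.666 CPM in CCI and 15.2 ± 1.80 CPM in sham (log2 fold change -0.45, edgeR adjusted p = 0.00308), but fell short of the threshold under library totals (-0.23, edgeR adjusted p = 0.0835).

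Of the 4 ATG4 proteases, which trim LC3 and GABARAP before conjugation and cut them off membranes again, only Atg4c passed with TMM, and the median log2 fold change was 0.12. Atg4c had 24.4, 25.5, 21.9 and 21.1 CPM in CCI 1 to 4, against 15.6, 14.0, 15.0 and 15.6 CPM in sham 1 to 4. The groups did not overlap (log2 fold change 0.63, SE 0.09; edgeR adjusted p = 7.20e-05). Atg4b, known as the most active of the family on LC3, had 28.8 ± 1.68 CPM in CCI and 26.8 ± 0.904 CPM in sham (edgeR adjusted p = 0.196) and Atg4d had 14.1 ± 1.60 CPM in CCI and 12.8 ± 0.863 CPM in sham (edgeR adjusted p = 0.267). Both were called higher with library totals only (log2 fold changes 0.33 and 0.36). Atg4a had 14.4 ± 0.901 CPM in CCI and 16.5 ± 1.29 CPM in sham and did not pass (edgeR adjusted p = 0.0756), and its log2 fold change of -0.19 turned to 0.03 with library totals. It was called lower without sham 4 (-0.25, edgeR adjusted p = 0.0325), with DESeq2's size factors (-0.23, edgeR adjusted p = 0.0391), by the DESeq2 Wald test (adjusted p = 0.0427) and with a filter of 5 CPM (edgeR adjusted p = 0.0286).

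**Figure D3:**
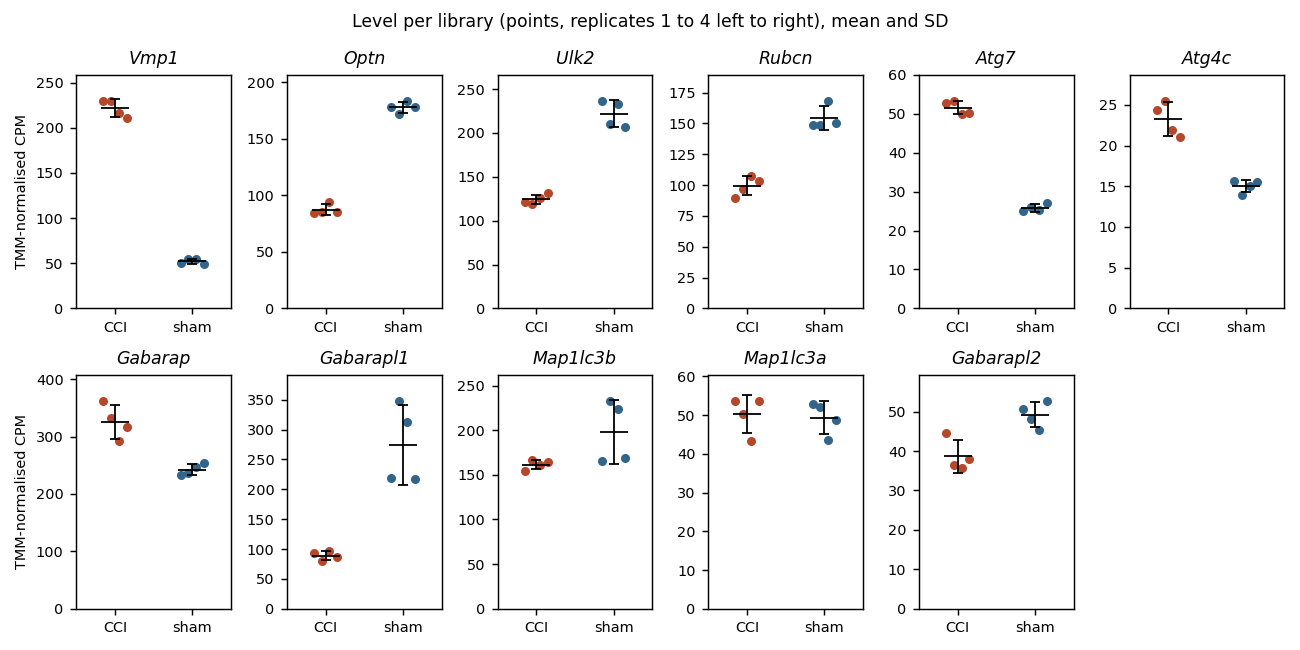
TMM-normalised CPM of 11 autophagy genes in each library (points, replicates 1 to 4 from left to right, CCI left of sham), with the mean and SD; every vertical axis starts at 0 and has its own scale. The groups do not overlap for Vmp1, Optn, Ulk2, Rubcn, Atg7, Atg4c, Gabarap, Gabarapl1 and Gabarapl2, and do for Map1lc3b and Map1lc3a.

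The ubiquitin-like proteins that coat the membrane moved apart from each other, with 1 of 5 higher and 3 lower with TMM and a median log2 fold change of -0.29. Gabarapl1 fell most. Gabarapl1 had 94.0, 80.1, 95.9 and 86.7 CPM in CCI 1 to 4, against 219, 348, 313 and 218 CPM in sham 1 to 4. All CCI libraries lay below all sham libraries, and the sham libraries fell into a higher pair (2 and 3) and a lower pair (1 and 4). Gabarapl1 fell by 1.62 (log2, SE 0.16; edgeR adjusted p = 1.31e-05), and by 1.29 without sham 2 and sham 3 (edgeR adjusted p = 5.16e-06). Its paralog Gabarap went the other way. Gabarap had 362, 333, 292 and 316 CPM in CCI 1 to 4, against 233, 236, 247 and 254 CPM in sham 1 to 4. The groups did not overlap, and Gabarap rose by 0.43 (log2, SE 0.08; edgeR adjusted p = 0.000464).

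The remaining members of the family differed less. Gabarapl2 had 44.6, 36.4, 35.6 and 37.9 CPM in CCI 1 to 4, against 50.6, 48.1, 45.5 and 52.7 CPM in sham 1 to 4. Gabarapl2 was called lower with TMM, without overlap (log2 fold change -0.35, SE 0.09; edgeR adjusted p = 0.00385), but not with library totals (-0.13, edgeR adjusted p = 0.191). Map1lc3b had 155, 167, 161 and 164 CPM in CCI 1 to 4, against 166, 233, 224 and 169 CPM in sham 1 to 4. Map1lc3b, the LC3 form most used to follow autophagy, was steady across CCI libraries, while sham 2 and sham 3 again lay above sham 1 and sham 4 and CCI 2 reached into the lower sham pair. It was called lower with TMM (log2 fold change -0.29, SE 0.11; edgeR adjusted p = 0.0374). That call was lost with library totals (-0.07) and by limma-voom (adjusted p = 0.0529). It was lost without CCI 1, 3 or 4 alone, though the log2 fold change was slightly larger (-0.31 to -0.32, edgeR adjusted p = 0.0513 to 0.0639). Without sham 2 or sham 3 alone it was lost at smaller log2 fold changes of -0.21 and -0.23 (edgeR adjusted p = 0.108 for each). The call was lost too without CCI 2 and sham 2 together (-0.22, edgeR adjusted p = 0.134) and without sham 2 and sham 3 together (-0.05, edgeR adjusted p = 0.498). Map1lc3a had 53.7, 50.3, 43.4 and 53.6 CPM in CCI 1 to 4, against 52.8, 52.2, 43.6 and 48.7 CPM in sham 1 to 4. Map1lc3a, a close relative, overlapped between groups and did not pass (log2 fold change 0.03, SE 0.09; edgeR adjusted p = 0.791), though it was called higher with library totals (0.25, edgeR adjusted p = 0.0234).

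The makeup of the family therefore differed between groups. Per length, on the deposited FPKM scale, the 5 genes summed to 639 ± 34.0 FPKM in CCI and 574 ± 49.5 FPKM in sham (SD, n = 4). Gabarap made up 66.8% ± 1.60 of that sum in CCI and 47.6% ± 4.23 in sham. Gabarapl1 made up 8.94% ± 1.04 in CCI and 25.8% ± 4.26 in sham. Neither share overlapped between groups. The ratio of Gabarapl1 to Gabarap was 0.126, 0.117, 0.160 and 0.133 in CCI 1 to 4, against 0.456, 0.717, 0.617 and 0.417 in sham 1 to 4. A ratio within a library does not depend on its scaling, and here every CCI library lay below every sham library. Map1lc3b made up 11.5% ± 0.979 in CCI and 13.3% ± 1.34 in sham, Map1lc3a 8.76% ± 0.536 in CCI and 8.25% ± 1.12 in sham, and Gabarapl2 4.09% ± 0.214 in CCI and 5.02% ± 0.676 in sham. RefSeq names 3 pseudogenes each for Gabarap and Gabarapl2 and 2 for Map1lc3b, and how reads shared with such copies were counted is not given in the sources used here.

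Of the 3 cargo receptors, 1 passed with TMM, and the median log2 fold change was -0.12. Optn encodes optineurin, a receptor for damaged mitochondria and bacteria. Optn had 84.0, 85.1, 94.5 and 85.3 CPM in CCI 1 to 4, against 178, 172, 184 and 178 CPM in sham 1 to 4. Spread was narrow in both groups, and they did not overlap. Optn fell by 1.03 (log2, SE 0.06; edgeR adjusted p = 1.06e-07), and by 0.80 with library totals only. Sqstm1, the receptor for ubiquitin-tagged cargo that is itself degraded by autophagy, was the second most abundant member per length in CCI, at 124 ± 5.60 FPKM, against 114.5 ± 13.0 FPKM in sham (SD, n = 4). In CPM it had 253 ± 8.09 CPM in CCI and 273 ± 28.2 CPM in sham and did not pass (log2 fold change -0.11, SE 0.08; edgeR adjusted p = 0.228), with its sign turned by library totals (0.12). Nbr1, a receptor for protein aggregates and peroxisomes, had 187 ± 4.54 CPM in CCI and 204 ± 11.0 CPM in sham and did not pass either (log2 fold change -0.12, SE 0.06; edgeR adjusted p = 0.0832). With library totals its value was 0.10, and with DESeq2's size factors it was called lower (-0.16, edgeR adjusted p = 0.0371), as it was by the DESeq2 Wald test (adjusted p = 0.0229) and with a filter of 5 CPM (edgeR adjusted p = 0.0178).

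Per length, the members spanned a wide range of levels in the nerve. Gabarap was the most abundant in both groups, at 427 ± 32.2 FPKM in CCI and 272 ± 12.1 FPKM in sham (SD, n = 4). Sqstm1 came next in CCI, followed by Map1lc3b, at 73.0 ± 2.94 FPKM, and Vmp1, at 70.3 ± 2.28 FPKM, and the ranges of 1 SD around the last 2 means overlapped. In sham the second place was held by Gabarapl1, at 150 ± 37.0 FPKM, followed by Sqstm1 at 114.5 ± 13.0 FPKM, and the ranges of 1 SD around these means overlapped. Gabarapl1 was at 56.9 ± 4.94 FPKM in CCI, beside Map1lc3a at 56.0 ± 4.80 FPKM. The least abundant members were Atg16l2, at 2.84 ± 0.184 FPKM in CCI and 3.32 ± 0.399 FPKM in sham, Atg10, at 1.01 ± 0.107 FPKM in CCI and 0.643 ± 0.107 FPKM in sham, and Atg9b, at 0.193 ± 0.0778 FPKM in CCI and 0.134 ± 0.0355 FPKM in sham. In the RefSeq annotation 14 members overlap another gene, among them Wipi1 (Arsg), Gabarapl2 (Adat1), Becn1 (Cntd1), Pik3r4 (Rpl29), Atg4d (Kri1), Atg9b (Nos3) and, with noncoding genes, Optn and Atg7. The strand setting of the counting is not given in the sources used here, so reads of such pairs cannot be told apart. Like library totals, the deposited FPKM are not corrected for library makeup.

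Other genes of the pathway were taken from 4 lists of 86 names, of which 81 were in the table and 79 were tested, Calcoco1 and Calcoco2 being too low. With TMM 24 were higher and 30 lower, 68.4% in all, against 68.4% of all tested genes (36.2% higher and 32.2% lower). With library totals only 37 were higher and 15 lower, against 7433 and 3682 of all 15763 tested genes. Their median log2 fold change was -0.08, and 6 (7.59%) were called with at least a 2-fold change. The 2 genes of each list and direction with the smallest p are named here, and the direction of these 16 held under every alternative setting run, as did their calls. They were picked by p in the same libraries, so this is no independent check.

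In the control of induction, where mTORC1 on the lysosome restrains autophagy and AMPK promotes it, 8 of 26 genes were higher and 8 lower (13 and 6 with library totals only), with a median log2 fold change of 0.0092. Rragc, a Rag GTPase that brings mTORC1 to the lysosome, had 102 ± 6.98 CPM in CCI and 55.0 ± 1.36 CPM in sham (log2 fold change 0.90, edgeR adjusted p = 3.33e-07). Lamtor3 and Lamtor1 encode subunits of the same Ragulator anchor and went opposite ways, Lamtor3 with 30.6 ± 2.38 CPM in CCI and 17.5 ± 2.20 CPM in sham (log2 fold change 0.81) and Lamtor1 with 41.9 ± 1.89 CPM in CCI and 70.9 ± 6.95 CPM in sham (log2 fold change -0.76). Deptor, an inhibitor of mTOR, had 160.5 ± 6.31 CPM in CCI and 272 ± 33.7 CPM in sham (log2 fold change -0.76, edgeR adjusted p = 2.16e-05).

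Of 16 genes of initiation and membrane growth, 6 were higher and 6 lower (7 and 3 with library totals only), with a median log2 fold change of -0.10. Bcl2l1 encodes BCL-XL, an apoptosis inhibitor that also binds Beclin, and fell by 1.23, with 101 ± 8.29 CPM in CCI and 237 ± 18.7 CPM in sham (edgeR adjusted p = 2.57e-07). The WIPI relatives Wdr45b and Wdr45 went opposite ways, Wdr45b with 65.2 ± 1.23 CPM in CCI and 50.1 ± 2.37 CPM in sham (log2 fold change 0.38) and Wdr45 with 22.5 ± 0.729 CPM in CCI and 33.0 ± 3.21 CPM in sham (log2 fold change -0.56). Tecpr1, which acts on damaged lysosomes, had 71.9 ± 3.2 CPM in CCI and 52.4 ± 2.02 CPM in sham (log2 fold change 0.46, edgeR adjusted p = 4.57e-05).

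Of 17 tested selective receptors and mitophagy genes, 3 were higher and 9 lower (6 and 4 with library totals only), with a median log2 fold change of -0.20. Pink1, the kinase that marks damaged mitochondria, changed most. Pink1 had 57.3, 66.7, 59.2 and 59.0 CPM in CCI 1 to 4, against 197, 282, 247 and 195 CPM in sham 1 to 4. The groups were far apart, with sham 2 and sham 3 the highest of their group, and Pink1 fell by 1.93 (log2, SE 0.12; edgeR adjusted p = 2.81e-07). Ccpg1, a receptor for the endoplasmic reticulum, had 95.5 ± 4.10 CPM in CCI and 169 ± 22.6 CPM in sham (log2 fold change -0.82, edgeR adjusted p = 1.57e-05). The mitochondrial receptors Bcl2l13 and Phb2 rose, Bcl2l13 with 34.1 ± 1.80 CPM in CCI and 20.0 ± 1.10 CPM in sham (log2 fold change 0.77) and Phb2 with 75.1 ± 4.30 CPM in CCI and 61.0 ± 4.72 CPM in sham (log2 fold change 0.30).

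Of 20 genes of fusion with the lysosome, 7 were higher and 7 lower (11 and 2 with library totals only), with a median log2 fold change of 0.04. The cathepsins Ctsb and Ctsd, lysosomal proteases, rose most. Ctsb had 3062 ± 188 CPM in CCI and 769 ± 86.4 CPM in sham (log2 fold change 1.99, edgeR adjusted p = 3.32e-08) and Ctsd had 1200 ± 94.7 CPM in CCI and 351 ± 46.0 CPM in sham (log2 fold change 1.77, edgeR adjusted p = 1.28e-07). Lamp2, a lysosomal membrane protein, fell by 0.58, with 386 ± 11.6 CPM in CCI and 578 ± 71.3 CPM in sham (edgeR adjusted p = 0.000145), and Vti1b, a SNARE of late endosomes, fell by 0.45, with 20.7 ± 1.32 CPM in CCI and 28.4 ± 2.13 CPM in sham (edgeR adjusted p = 0.000481). Cathepsins are abundant in macrophages, whose markers were higher in the same libraries, and the part of that shift in these values was not tested.

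**Figure D4:**
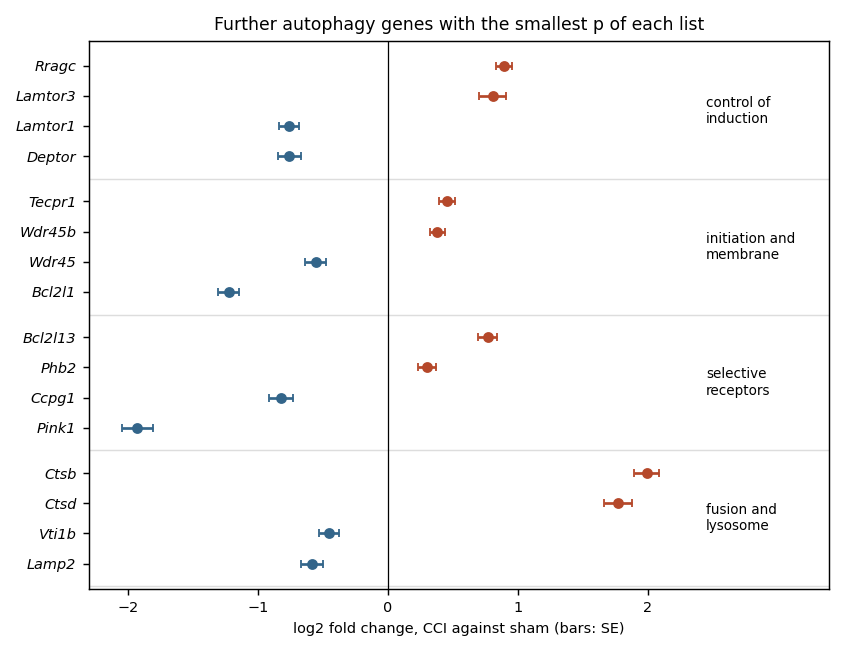
Log2 fold change, CCI against sham, with SE bars, of the 16 further autophagy genes with the smallest p of each list and direction (red higher, blue lower). Ctsb lies furthest right at 1.99 and Pink1 furthest left at -1.93.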

How the data were processed

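RNA from 8 sciatic nerve libraries, 4 CCI and 4 sham, was analysed. The authors deposited raw counts per gene and FPKM values. Processing used Rnor_6.0 and, named with no role or order, fastp, HISAT2, HTSeq, DESeq2 and R 3.2.0, per the submitters' processing notes. Which annotation and strand setting were used is not given in the sources used here. For all 18774 genes with values in enough libraries to check, the deposited count over FPKM and library total gave 1 gene length in every library (relative tolerance 1e-06), so FPKM are scaled by library totals alone.

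Counts were tested with edgeR 4.0.16 in R 4.3.3 (filterByExpr, TMM, robust quasi-likelihood fit), with p-values adjusted by Benjamini-Hochberg over 15763 genes. Standard errors are the log2 fold change divided by the square root of F. The procedure was tested on simulated data in which few genes changed, in either direction, so that run does not bear on the choice of scaling. A count of 3 in a library corresponds to 0.0518 to 0.0771 CPM, and limits of this kind cover counting error only. The members and gene lists were chosen with earlier results of these data known. All members are named, with every library's value for those called with at least a 2-fold change, the LC3 and GABARAP genes and the smallest p of each role. From each further list, the 2 called genes with the smallest p in each direction are named. Alternatives were DESeq2 size factors, library totals only, the DESeq2 1.42.0 Wald test, limma-voom (limma 3.58.1), no filter, a filter of 5 CPM in 4 libraries, limma on log2(FPKM + 1) and log2(FPKM + 0.1), the replicate number as a block, each library left out, CCI 2 and sham 2 left out and, added after seeing the data, sham 2 and sham 3 left out. List names without a row under that name, such as Atg2b, Rragb, Rubcnl and Retreg1, were not analysed here. RefSeq promoters are on GRCr8, and all 37 symbols matched.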

Additional observations from a re-analysis of the deposited data

Results flagged for a closer look

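In 7 of 106 groups of 4 libraries, over the 53 autophagy genes named by the rules, 1 library lay apart from the other 3 by Dixon's test, whose critical ratio is 0.829 for 4 values; chance does this in about 1 group in 20. In CCI 1, Atg2a was at 55.6 CPM against 52.8 to 53.3 CPM in the other CCI libraries, Rragc was at 113 CPM against 97.5 to 100 CPM, and Wdr45 was at 21.4 CPM against 22.7 to 22.9 CPM. In CCI 2, Atg13 was at 52.8 CPM against 55.3 to 55.6 CPM in the other CCI libraries. In CCI 3, Optn was at 94.5 CPM against 84.0 to 85.3 CPM in the other CCI libraries. In sham 3, Rubcn was at 169 CPM against 148 to 151 CPM in the other sham libraries. In sham 4, Atg10 was at 5.60 CPM against 4.06 to 4.32 CPM in the other sham libraries. The calls of Atg2a, Atg13, Optn, Rubcn, Rragc and Wdr45 held in the same direction without each of these libraries. The call of Atg10 held without sham 4 but was lost without CCI 2, CCI 3 or sham 3.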

How the results depend on the processing

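Scaling moved the counts most. With library totals only, 14 members were called higher and 6 lower, against 8 and 18 with TMM, and limma on log2(FPKM + 1) and on log2(FPKM + 0.1) gave 14 and 6 as well. Over all 15763 tested genes library totals gave 7433 higher and 3682 lower, against 5708 and 5080 with TMM. The further autophagy genes had 37 higher and 15 lower with library totals, 38 and 15 with log2(FPKM + 1) and 38 and 16 with log2(FPKM + 0.1), against 24 and 30 with TMM. Under these 3 settings, in that order, the log2 fold change changed sign for Atg4a (0.0313, 0.0281 and 0.0313), Atg9a (0.0481, 0.0449 and 0.0471), Nbr1 (0.10, 0.0998 and 0.10), Sqstm1 (0.12, 0.12 and 0.12), Ambra1 (0.0488, 0.0450 and 0.0484), Pik3c3 (0.0718, 0.0654 and 0.0709) and Atg3 (0.0535, 0.0549 and 0.0562). Map1lc3a, near 0 with TMM, changed sign with DESeq2's size factors (-0.00520), the DESeq2 Wald test (-0.00214) and the filter of 5 CPM (-0.0261), and without sham 2 and sham 3 (-0.0129). Leaving out 1 library at a time, its log2 fold change ran from -0.0415 to 0.0612, below 0 without CCI 1, CCI 4 or sham 3. That of Atg9b ran from -0.0112 (without CCI 2) to 0.44, and was -0.16 without CCI 2 and sham 2. DESeq2's size factors, the Wald test and the filter of 5 CPM gave 8 higher and 21 lower members, although Atg9b did not pass that filter. Over all genes tested, DESeq2's size factors gave 5467 higher and 5314 lower of 15763. The Wald test gave 5789 and 5560 of 17624, and the filter of 5 CPM 4398 and 4457 of 11841. Leaving out 1 library at a time gave 6 to 8 higher and 15 to 19 lower members. Over all genes tested in those fits, 5213 to 5575 were higher and 4876 to 5188 lower. Without sham 2 and sham 3, 7 were higher and 11 lower, against 5217 and 4644 of the 16252 genes tested there. The cause of these differences was not tested.

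The labels number the libraries 1 to 4 in each group and state no pairing, so the numbers were not taken as pairs. The deviations of same-numbered libraries from their group means correlated at 0.121, 0.293, -0.0241 and 0.0271. The value of 0.293, for CCI 2 with sham 2, was the highest for any CCI library with any sham library. So few correlations cannot show or exclude pairing. With the replicate number as a block, 8 members were higher and 17 lower, the call of Atg3 being the one lost, and over all genes 10505 were called against 10788 without the block.

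With 4 libraries a group, differences as small as those of Ambra1, Pik3c3 and Atg3 lie near the threshold, and scaling by library totals turned their sign.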

Other observations

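Sham 2 and sham 3 both lay above sham 1 and sham 4 in 12 of the 37 members (32.4%), against 3114 of all 15763 tested genes (19.8%). These were Ambra1, Atg101, Atg12, Atg13, Atg14, Atg2a, Gabarapl1, Map1lc3b, Nbr1, Rb1cc1, Ulk1 and Vmp1. Both lay below in 3 members (8.11%), Atg4c, Gabarapl2 and Wipi1, against 3640 of all tested genes (23.1%). Among the further autophagy genes both lay above in 28 of 79 (35.4%) and below in 16 (20.3%). This split of the sham libraries was noticed after the values were seen and has no test.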
